A study of Mus musculus with 4 samples.

Results

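The 52 mitosis and spindle genes described here encode kinases, cyclins, kinesins, kinetochore and checkpoint proteins and the condensin subunits. They were chosen by gene symbol, with earlier results of these data known. All 52 were found, 1 row each, among the 20385 genes present in both deposited tables. RNA came from the cerebral cortex of C57BL/6 mice, dissected at embryonic day 16, a stage when progenitors still divide along the ventricle while neurons accumulate above them. The groups were 2 libraries with a Cd93 knockout (KO 5 and KO 6) and 2 wild-type libraries (WT 1 and WT 4), with no treatment named in the labels, and the title of the study concerns the receptor CD93 in astrogenesis. The labels do not give the design of the knockout allele or whether the libraries stem from separate embryos, so p-values measure only the spread between these libraries. The labels name 2 libraries per genotype, while the design text speaks of triplicates. KO 6 was deposited in a table with WT 1 (table A) and KO 5 in a table with WT 4 (table B).

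Entry into mitosis is driven by CDK1 bound to cyclins A and B, and Polo and Aurora kinases then build the spindle. Kinetochores tie chromosomes to microtubules, the spindle checkpoint holds the cell until every chromosome is attached, and the anaphase-promoting complex then has securin and cyclin B destroyed. In fetal cortex these transcripts belong to dividing cells, among them radial glia and intermediate progenitors. Their level in bulk RNA thus tracks how many dividing cells of any type were sampled as well as how much each makes. Fewer dividing cells and less RNA per dividing cell cannot be told apart here.

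Libraries held 17555476 counts (KO 5), 16318317 (KO 6), 17586157 (WT 1) and 17158867 (WT 4), so that 1 count was 0.0569 to 0.0613 CPM, the count scaled to a common library total. Cd93 had 111 and 99 counts in KO 5 and KO 6, against 680 and 409 in WT 1 and WT 4, which follows the genotype labels although its edgeR adjusted p was 0.211. Every mitosis gene was counted at least 92 times in every library, up to 4514 times for Ncapd2 in WT 1, and all 52 passed the filter on low counts. Neuronal genes were abundant. In KO 5 and KO 6 the 11 genes listed for postmitotic cortical neurons summed to 9873 and 10084 CPM. In WT 1 and WT 4 they came to 8957 and 9996 CPM. This sum does not tell cortex from other neural tissue. Genes of the ganglionic eminence and meninges were also counted, with the highest sums in WT 1.

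Many genes of this kind share a promoter layout, the cell cycle genes homology region (CHR), a hexamer TTTGAA near the transcription start that is bound by the DREAM repressor in resting cells and by the MYB-MuvB and FOXM1 activators before mitosis, often downstream of CCAAT boxes bound by NF-Y. Promoter windows from RefSeq (GRCm38.p6), reaching 250 bases before and 50 bases after the start nearest to the deposited gene start, matched 43 of the 52 genes and 11324 of the tested genes. No limit was set on the distance between these starts. It was largest for Kif2c (3867 bases), Cdca8 (2394), Kif4 (328) and Pttg1 (270), whose windows may miss the promoter in use. Of these, Cdca8 and Kif4 are counted below with a TTTGAA near the start. On either strand, TTTGAA lay between 60 bases before the start and the end of the window in 29 of the 43 (67.4%), against 3.17% of all windows. CCAAT was found anywhere in the window in 30 of the 43 (69.8%), against 38.4% of all windows, and at least 2 copies in 20 (46.5%), against 14.3%. TTTGAA near the start together with a CCAAT occurred in 25 (58.1%), against 1.57%. In 1 case a TTTGAA match shared a base with a CCAAT match. A TATAAA was present in 1 of the 43 windows (2.33%), against 6.95% of all windows. A match is a description of letters and shows no binding.

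Of the 8 windows printed here, 7 show that layout in genes with different tasks and Ncapd2 stands as a contrast, and the stretches end at the base before the start. Capitals mark TTTGAA and CCAAT on either strand (TTCAAA and ATTGG are their reverse complements). The windows are Kif11 chr19:37376282-37376381 (plus strand), Top2a chr11:99024190-99024299 (minus strand), Cdk1 chr10:69352913-69353012 (minus strand), Cdc20 chr4:118437344-118437443 (minus strand), Ube2c chr2:164769829-164769928 (plus strand), Kif22 chr7:127042421-127042520 (minus strand), Espl1 chr15:102296193-102296292 (plus strand) and Ncapd2 chr6:125191587-125191736 (minus strand), each written 5′ to 3′ along its gene.
Kif11: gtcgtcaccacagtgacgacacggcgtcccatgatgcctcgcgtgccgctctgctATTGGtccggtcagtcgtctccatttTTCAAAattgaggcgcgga
Top2a: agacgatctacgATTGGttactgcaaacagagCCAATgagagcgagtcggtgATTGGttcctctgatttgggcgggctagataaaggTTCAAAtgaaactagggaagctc
Cdk1: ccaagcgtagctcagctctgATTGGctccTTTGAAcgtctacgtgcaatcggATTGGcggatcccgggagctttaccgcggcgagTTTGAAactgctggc
Cdc20: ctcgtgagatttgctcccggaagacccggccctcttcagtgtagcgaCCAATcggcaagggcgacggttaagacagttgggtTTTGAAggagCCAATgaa
Ube2c: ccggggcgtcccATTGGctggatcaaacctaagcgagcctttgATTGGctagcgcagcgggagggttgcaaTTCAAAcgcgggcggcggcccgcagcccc
Kif22: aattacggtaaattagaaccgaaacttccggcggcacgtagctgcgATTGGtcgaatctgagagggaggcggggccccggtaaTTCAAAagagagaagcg
Espl1: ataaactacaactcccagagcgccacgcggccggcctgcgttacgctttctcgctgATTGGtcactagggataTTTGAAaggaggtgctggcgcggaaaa
Ncapd2: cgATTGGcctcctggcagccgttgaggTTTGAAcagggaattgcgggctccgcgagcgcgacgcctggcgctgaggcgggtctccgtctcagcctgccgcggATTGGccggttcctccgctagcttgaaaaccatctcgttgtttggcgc
In Kif11, Top2a, Ube2c and Kif22 the hexamer closest to the start is on the reverse strand, with its first base at -19, -23, -29 and -17, where -1 is the base before the start. In Cdk1, Cdc20 and Espl1 it reads forward, at -15, -18 and -27. The only hexamer of Ncapd2 lies farther out, at -123. The median log2 fold change (KO over WT) was -0.14 over the 29 genes with the hexamer near the start and -0.11 over the 14 without it.

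**Figure D1:**
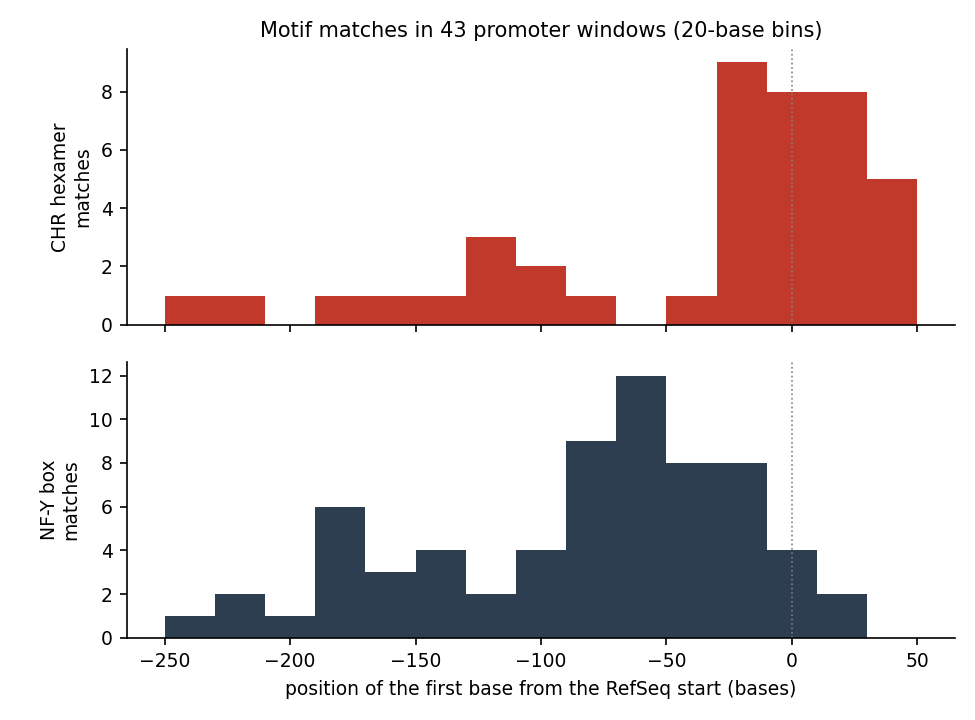
Number of motif matches (vertical axes, counts) by position from the RefSeq start in bases (horizontal axis, 20-base bins), for the CHR hexamer (upper panel) and the NF-Y box (lower panel) in the 43 promoter windows. CHR matches gather around the start, and 29 of the 43 windows hold one from 60 bases before it onward, while NF-Y boxes gather upstream.

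None of the 52 mitosis genes passed the test between Cd93 KO and WT cortex. By the median over the 52 genes the libraries ran from KO 6 at the bottom through WT 4 and KO 5 to WT 1 at the top. By the quasi-likelihood test of edgeR, adjusted by Benjamini-Hochberg over 16371 genes, 0 of 52 were called, where the share called among all tested genes was 0.0122% (2 genes). At an unadjusted p under 0.05 there were 2 of the 52, Kif11 and Spc25, against 1.94% of all genes. DESeq2 called 0 of the 52, where it called 0.0489% of all genes, and had 2 under an unadjusted p of 0.05, against 1.14%. The limma-voom test also called 0 of the 52, against 0.0122% of all genes, with 2 under an unadjusted p of 0.05, against 1.61%. With the deposited table added to the model, edgeR called 0 of the 52 and 0.177% of all genes, and 2 of the 52 had an unadjusted p under 0.05, against 3.99%. The adjusted p of each of the 52 was 0.9999 by edgeR.

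Together the 52 genes summed to 2647 CPM in KO 5 and 2117 CPM in KO 6, against 2796 CPM in WT 1 and 2406 CPM in WT 4. KO 6 was the lowest library and WT 1 the highest, while KO 5 lay above WT 4, so the genotypes overlapped. KO 6 was the lowest of the 4 libraries for 43 of the 52 genes, against 25.6% of all tested genes, and WT 1 the highest for 33, against 27.9%. Both held in 25 of the 52 (48.1%), against 8.06% of all tested genes. KO 5 was the highest library for 14 of the 52, a share similar to that of all genes (4129 of 16371). The median over the 52 genes of the deviation from each gene's mean was 0.08 in KO 5, -0.24 in KO 6, 0.19 in WT 1 and -0.03 in WT 4 on the log2 CPM scale. Within genotypes, the median log2 ratio of KO 6 to KO 5 was -0.32 and that of WT 1 to WT 4 was 0.21. Both were larger in size than the median log2 fold change between genotypes, -0.14, where the median of all tested genes was -0.003. The ratios within genotypes compare single libraries, while the fold change compares groups of 2, which vary less, so the sizes are not on equal terms.

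**Figure D2:**
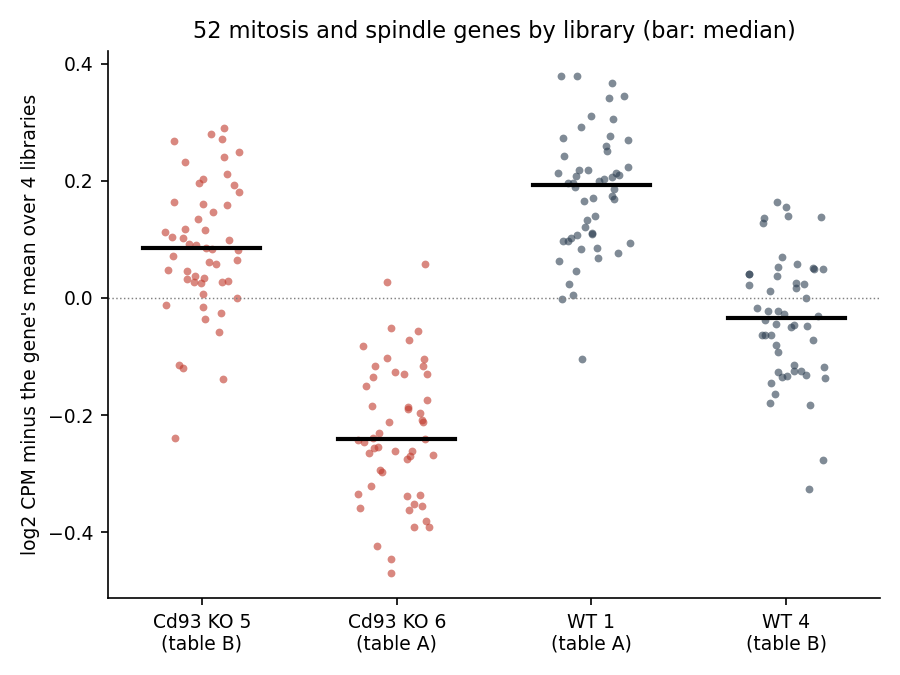
Each point is 1 of the 52 mitosis and spindle genes in 1 library, as log2 CPM minus that gene's mean over the 4 libraries (vertical axis), and bars are medians. The medians are 0.08 in KO 5, -0.24 in KO 6, 0.19 in WT 1 and -0.03 in WT 4. Single libraries of a genotype lie apart by more than the genotype means do, although single libraries also vary more than means.

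Of the 52 log2 fold changes, 48 were below 0 and 4 above, against 51.0% below 0 over all tested genes. This lean depended on KO 6 and WT 1. Without KO 6 the median was 0.01, with 22 below 0 and 30 above, and without WT 1 it was -0.03, with 30 below and 22 above. Without KO 5 it was -0.31 and without WT 4 -0.23, each with 50 below 0. Of the single genes, 37 changed sign when a library was left out and 15 did not. Those 15 moved as well, Spc25 between -0.53 and -0.23, Ccna2 between -0.47 and -0.07 and Top2a between -0.35 and -0.03. Among the 15 are the 8 genes with both KO libraries below both WT libraries and the 1 with both above. Where the groups do not overlap, leaving out a library cannot turn the sign, so a kept sign adds nothing for these genes. In all 4 of these edgeR fits 0 of the 52 were called, where the share of all genes called was 0.0466% without KO 6, 0.259% without WT 1, 0.0291% without KO 5 and 1.82% without WT 4. Under an unadjusted p of 0.05 there were 0 of the 52 without KO 6 (2.02% of all genes) and 0 without WT 1 (2.4%), against 13 without KO 5 (2.34%) and 6 without WT 4 (7.0%).

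Within the deposited tables the medians lay on opposite sides of 0. In table A (KO 6 over WT 1) the median log2 ratio was -0.41, with 51 of 52 genes below 0, and in table B (KO 5 over WT 4) it was 0.13, with 40 above 0. Lower in table A and higher in table B were 39 of the 52 (75.0%), against 27.3% of all tested genes. The difference between tables could not be tested, since each table holds 1 library per genotype. The authors' deposited table A gives 48 of the 52 an adjusted p under 0.05 as lower in KO 6, where 13.3% of all its genes have one, and 0 as higher, where 7.94% have one. The authors' deposited table B gives 15 an adjusted p under 0.05 as higher in KO 5, where 6.34% of its genes have one, and 0 as lower, where 6.51% have one. Those p-values compare 1 library with 1 library. The authors' deposited tables mark none of the 52 as significant (0 in each), against 4.67% (table A) and 2.31% (table B) of all genes. The mark does not follow from the adjusted p alone, since the 48 and the 15 with one under 0.05 go unmarked.

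**Figure D3:**
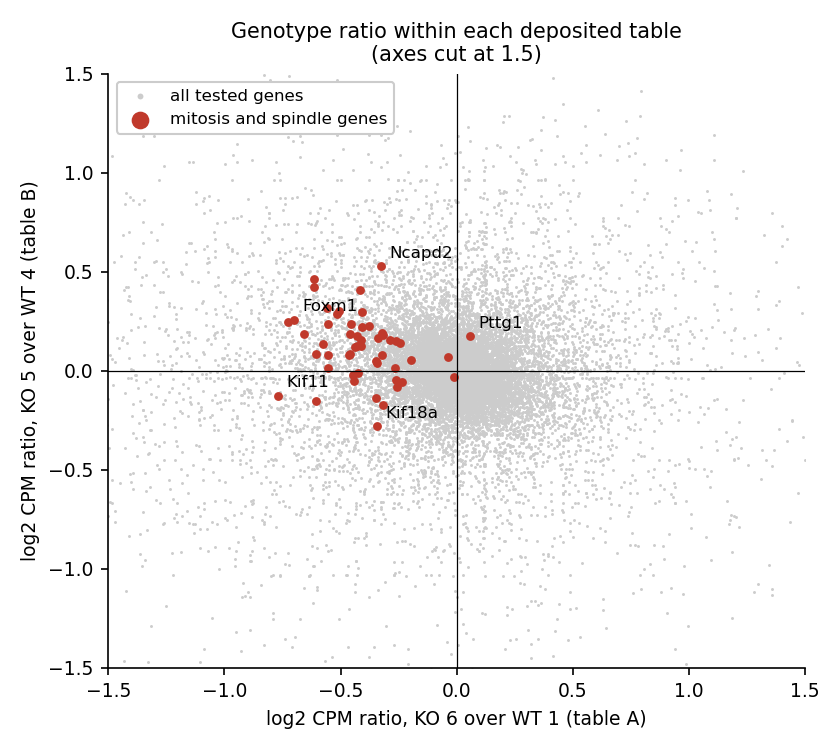
Log2 CPM ratio of KO 6 over WT 1 (horizontal axis, table A) against KO 5 over WT 4 (vertical axis, table B), with the 52 genes in red and all tested genes in grey. The red points gather left of 0 and mostly above 0, with medians of -0.41 and 0.13.

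The cyclins and kinases that start mitosis had all 10 log2 fold changes below 0, with a median of -0.15, and KO 6 was the lowest library for all 10. Ccna2 (ENSMUSG00000027715, chr3:36564865-36572150), the gene of cyclin A2, had 1049 and 735 counts in KO 5 and KO 6, against 1184 and 1011 in WT 1 and WT 4. Its KO 5 library, at 59.9 CPM, overlapped WT 4, at 59.4 CPM, and the log2 fold change was -0.26 (SE 0.15). Ccnb2 (ENSMUSG00000032218, chr9:70407692-70421547), the gene of cyclin B2 and per kilobase of exon the most abundant of the 10, had 26.7 and 22.5 CPM in KO 5 and KO 6, against 30.6 and 27.7 CPM in WT 1 and WT 4. Its groups did not overlap, and the log2 fold change was -0.24 (SE 0.14, 95% interval -0.59 to 0.10). The partner kinase gene Cdk1 had 51.3 and 47.3 CPM in KO, against 60.2 and 49.6 CPM in WT, with KO 5 above WT 4. Foxm1, the gene of a transcription factor that activates many genes of this kind, spanned a wider range, at 57.1 and 41.9 CPM in KO 5 and KO 6, against 68.1 and 47.8 CPM in WT 1 and WT 4. Within the tables its log2 ratios were -0.70 (A) and 0.26 (B). The phosphatase genes Cdc25b and Cdc25c, whose products activate CDK1, had log2 fold changes of -0.07 and -0.14. The kinase genes Plk1 (spindle and centrosome maturation), Plk4 (centriole duplication) and Aurka (spindle poles) had -0.20, -0.10 and -0.14, and Ccnb1, the gene of cyclin B1, had -0.06.

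The spindle checkpoint genes had a median log2 fold change of -0.08, with 4 of 5 below 0. Bub3 (ENSMUSG00000066979, chr7:131560222-131571895), whose product docks BUB1 and BUBR1 at kinetochores, had 119 and 103 CPM in KO 5 and KO 6, against 104 and 122 CPM in WT 1 and WT 4. Unlike most of the 52, its WT 1 library was low, and its log2 ratios within both tables were near 0 (-0.01 and -0.03). Bub1b (ENSMUSG00000040084, chr2:118598211-118641591), the gene of BUBR1, had 46.8 and 33.8 CPM in KO 5 and KO 6, against 46.2 and 47.5 CPM in WT 1 and WT 4. Only KO 6 stood below the other 3 libraries. Bub1 (ENSMUSG00000027379, chr2:127801122-127831865), the gene of a checkpoint kinase, had 25.5 and 22.0 CPM in KO, against 29.8 and 23.5 CPM in WT. Ttk, the gene of the kinase MPS1, gave opposite ratios in the tables, -0.41 and 0.41 on the log2 scale, and a log2 fold change of 0.02. Mad2l1, the gene of the anaphase inhibitor MAD2, had -0.08.

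Kinetochore and centromere genes had 6 of 6 log2 fold changes below 0, with a median of -0.16. Spc25 (ENSMUSG00000005233, chr2:69193895-69206194), the gene of a subunit of the NDC80 complex that grips microtubules, had 597 and 498 counts in KO 5 and KO 6, against 832 and 645 in WT 1 and WT 4. This is 32.4 ± 2.39 CPM in KO and 42.4 ± 6.31 CPM in WT (SD, n = 2 each). The groups did not overlap, the log2 fold change was -0.39 (SE 0.14) and the unadjusted edgeR p 0.0334, with an adjusted p of 0.9999. The other NDC80 subunit genes were nearer to WT, with log2 fold changes of -0.23 for Spc24, -0.12 for Nuf2 and -0.06 for Ndc80. Per kilobase of annotated exon the mean level over 4 libraries was 11.7 CPM for Spc25, 7.01 for Spc24, 5.76 for Nuf2 and 2.57 for Ndc80, a scale on which long annotated exon sets lower a gene. Cenpf (ENSMUSG00000026605, chr1:189640606-189688086), the gene of a large outer kinetochore protein, had 55.7 and 51.8 CPM in KO 5 and KO 6, against 62.1 and 57.5 CPM in WT 1 and WT 4. Its groups did not overlap either, by a narrow margin, at a log2 fold change of -0.15 (SE 0.11). Cenpa, the gene of the centromeric histone H3 variant, had a log2 fold change of -0.16 with overlapping groups.

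The chromosomal passenger complex, which corrects faulty attachments and then directs cytokinesis, had 4 of 4 log2 fold changes below 0, with a median of -0.16. Aurkb (ENSMUSG00000020897, chr11:69045647-69051664), its kinase gene, had 37.6 and 23.1 CPM in KO 5 and KO 6, against 33.9 and 35.6 CPM in WT 1 and WT 4. The KO libraries lay on both sides of WT. Incenp (ENSMUSG00000024660, chr19:9872297-9899533), the scaffold gene, showed the same spread, with 63.9 and 42.0 CPM in KO and 57.6 and 54.3 CPM in WT. Cdca8 (ENSMUSG00000028873, chr4:124918465-124939311), the gene of borealin, had 42.4 and 33.2 CPM in KO and 45.7 and 40.1 CPM in WT. Birc5, the gene of survivin, had 28.4 and 25.5 CPM in KO 5 and KO 6, against 36.3 and 23.0 CPM in WT 1 and WT 4, and here the WT libraries lay on both sides of KO.

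The kinesins, microtubule motors of the spindle, had 10 of 10 log2 fold changes below 0, with a median of -0.18. Kif11 (ENSMUSG00000012443, chr19:37376403-37421859), the gene of the motor Eg5 that pushes the spindle poles apart, had the smallest p of the 52. It had 1048 and 770 counts in KO 5 and KO 6, against 1439 and 1112 in WT 1 and WT 4, or 53.6 ± 8.74 CPM in KO and 73.1 ± 11.1 CPM in WT (SD, n = 2 each). The groups did not overlap, the log2 fold change was -0.45 (SE 0.16, 95% interval -0.83 to -0.07) and the unadjusted edgeR p 0.0275, with an adjusted p of 0.9999. Its log2 ratio was -0.77 within table A and -0.13 within table B. Its log2 fold change ran from -0.62 to -0.28 when a library was left out, where the lack of overlap fixes the sign. Kif4 (ENSMUSG00000034311, chrX:100625737-100727214), the gene of a chromosome-bound motor of the midzone, had 493 and 405 counts in KO 5 and KO 6, against 553 and 540 in WT 1 and WT 4, or 26.6 ± 2.25 CPM in KO and 31.4 ± 0.43 CPM in WT (SD, n = 2 each). Its groups did not overlap, at a log2 fold change of -0.24 (SE 0.13). Kif18a, the gene of a motor that damps chromosome movement, had its lowest library in KO 5 and not in KO 6, with groups that did not overlap, at 11.4 and 12.8 CPM in KO 5 and KO 6, against 16.2 and 13.8 CPM in WT 1 and WT 4. Kif22 (ENSMUSG00000030677, chr7:127027729-127042471), the gene of a chromosome-arm motor and the most abundant kinesin per kilobase, had 55.4 and 43.1 CPM in KO and 58.1 and 50.8 CPM in WT, with overlap. Kif20a (cytokinesis) and Kifc1 (a minus-end motor that bundles poles) had the widest errors of the kinesins, an SE of 0.24 around -0.22 for Kif20a and of 0.25 around -0.06 for Kifc1. The other kinesin genes Kif2c, Kif23, Kif20b and Kif15 had log2 fold changes of -0.24, -0.13, -0.06 and -0.05.

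Genes of spindle assembly and the midzone had 2 of 3 log2 fold changes below 0, with a median of -0.10, and those of cytokinesis 3 of 3, with a median of -0.06. Tpx2 (ENSMUSG00000027469, chr2:152847964-152895321), whose product activates Aurora A, had 84.9 and 59.4 CPM in KO 5 and KO 6, against 80.1 and 75.1 CPM in WT 1 and WT 4, so KO held both the highest and the lowest library. Nusap1 (ENSMUSG00000027306, chr2:119618298-119651244), the gene of a microtubule bundler, had 49.2 and 39.1 CPM in KO and 59.6 and 46.5 CPM in WT. Prc1, the gene of the midzone crosslinker, varied least, at 38.9 and 39.9 CPM in KO and 41.0 and 37.1 CPM in WT. Among the cytokinesis genes, Racgap1 (ENSMUSG00000023015, chr15:99620496-99651656), the gene of a subunit of centralspindlin, had 101 and 78.9 CPM in KO, against 98.5 and 88.6 CPM in WT. Anln (ENSMUSG00000036777, chr9:22332012-22389188), the gene of the ring scaffold anillin, had 18.6 and 15.8 CPM in KO and 21.7 and 16.3 CPM in WT, and Ect2 had a log2 fold change of -0.05.

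The genes of chromosome structure had 6 of 7 log2 fold changes below 0, with a median of -0.12. Top2a (ENSMUSG00000020914, chr11:98992943-99024189), the gene of the topoisomerase that untangles sister chromatids, had 3277 and 2439 counts in KO 5 and KO 6, against 3683 and 3017 in WT 1 and WT 4. Its level was 169 ± 26.0 CPM in KO and 192 ± 21.2 CPM in WT (SD, n = 2 each). KO 5 lay above WT 4, and the log2 fold change was -0.19 (SE 0.15). Mki67, the gene of the proliferation antigen Ki-67, had 166 and 131 CPM in KO, against 174 and 152 CPM in WT, a log2 fold change of -0.14 (95% interval -0.49 to 0.22). Of the condensin genes, Smc2 (ENSMUSG00000028312, chr4:52439243-52488260), the gene of a core ATPase, had 49.3 and 51.7 CPM in KO 5 and KO 6, against 61.8 and 52.2 CPM in WT 1 and WT 4. The groups did not overlap, although KO 6 and WT 4 lay close, and the log2 fold change was -0.18 (SE 0.12). Smc4, the gene of the other ATPase, had -0.12, and the subunit genes Ncapg and Ncaph had -0.11 and -0.08. Ncapd2 (ENSMUSG00000038252, chr6:125168007-125191701), a condensin subunit gene and the most abundant of the 52 per kilobase, had 250.4 and 203 CPM in KO 5 and KO 6, against 254 and 174 CPM in WT 1 and WT 4. WT held both extremes, the log2 fold change was 0.08 (SE 0.20), and the log2 ratio in table B, 0.53, was the highest of the 52. The authors' deposited table B gives Ncapd2 a fold of 1.45 with an adjusted p of 1.27e-53. Exons of Ncapd2 share 237 bases with the small RNA gene Scarna10 on the same strand, and reads of the pair cannot be told apart there.

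The genes that end mitosis, by destruction of securin and cyclin B, had a median log2 fold change of -0.07. Cdc20 (ENSMUSG00000006398, chr4:118432901-118437352), the gene of the activator of the anaphase-promoting complex, had 57.8 and 37.3 CPM in KO 5 and KO 6, against 49.5 and 49.6 CPM in WT 1 and WT 4. The WT libraries were alike and the KO libraries lay on both sides of them. Ube2c (ENSMUSG00000001403, chr2:164769898-164778822), the gene of the ubiquitin-conjugating enzyme of that complex, had 60.4 and 38.3 CPM in KO and 60.4 and 53.0 CPM in WT. Espl1, the gene of separase, which cuts cohesin, had 30.1 and 20.1 CPM in KO and 30.8 and 22.4 CPM in WT. Pttg1 (ENSMUSG00000020415, chr11:43420250-43426251), the gene of securin, the inhibitor of separase, had the fewest counts of the 52. It had 107 and 99 counts in KO 5 and KO 6, against 104 and 92 in WT 1 and WT 4, or 6.11 and 6.10 CPM in KO and 5.85 and 5.40 CPM in WT. It was the only gene of the 52 with both KO libraries above both WT libraries, at a log2 fold change of 0.12 (SE 0.24) with an interval of -0.45 to 0.68.

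**Figure D4:**
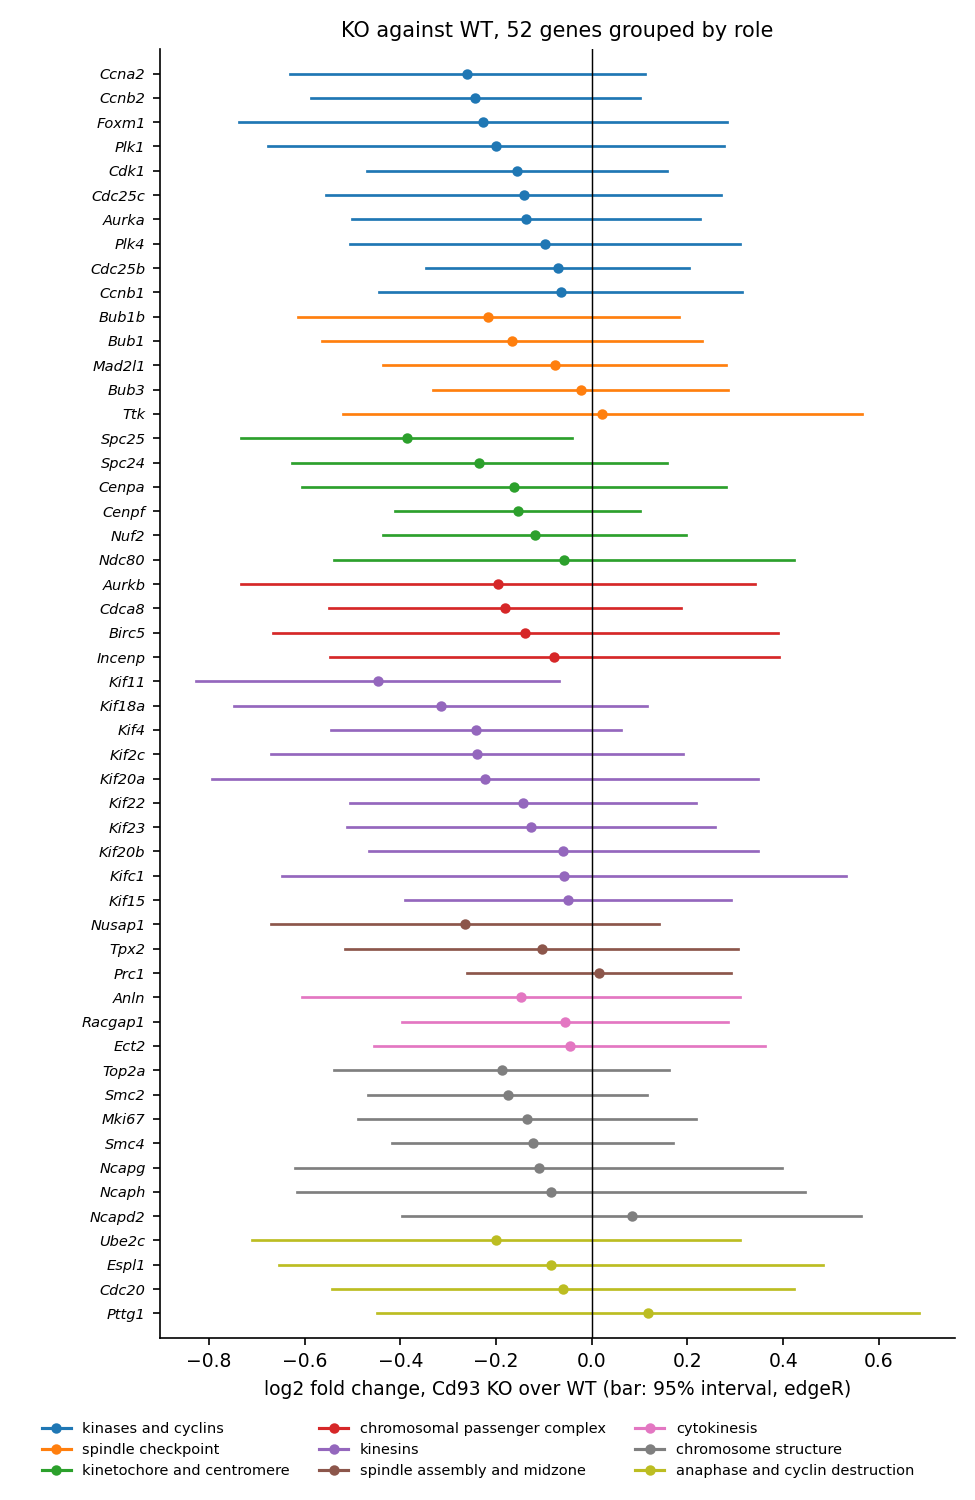
Log2 fold change, Cd93 KO over WT, with its 95% interval from the edgeR fit (horizontal axis) for each of the 52 genes, grouped by role from cyclins and kinases at the top to the genes of anaphase at the bottom. All but Kif11 and Spc25 have intervals that include 0, and no interval reaches a 2-fold change in either direction.

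In 8 of the 52 genes both KO libraries lay below both WT libraries (Ccnb2, Spc24, Spc25, Cenpf, Kif11, Kif4, Kif18a and Smc2), where 11.9% of all tested genes do. Both KO libraries were above both WT libraries in 1 of the 52, where 11.5% of all genes are. The 95% intervals ran down to -0.83 at the lowest (Kif11) and up to 0.68 at the highest (Pttg1), so within this model changes of 2-fold lay outside every interval.

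Genes of the cycle outside the 52 were likewise lowest in KO 6 when summed. The other mitosis genes came to 4064 and 3701 CPM in KO 5 and KO 6, against 4124 and 3987 CPM in WT 1 and WT 4. Of these 80 genes, all tested, 65 had log2 fold changes below 0, with a median of -0.10, and edgeR called 0. Within the tables their median log2 ratios were -0.33 (A) and 0.09 (B). The smallest p was that of Sgo2a, the gene of a protector of centromeric cohesin, at 5.02 and 4.81 CPM in KO and 7.03 and 6.93 CPM in WT (log2 fold change -0.51, SE 0.23). Of 28 S phase genes edgeR called 0, 22 were below 0, with a median of -0.07, against ratios within the tables of -0.28 (A) and 0.09 (B). The 15 genes of G1 and cell cycle exit had a median of -0.05, 11 below 0 and 0 called, among them Ccnd2, the gene of cyclin D2, at 289 and 261 CPM in KO and 399 and 287 CPM in WT.

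Markers of other cells also differed between libraries, and their part in the levels of the mitosis genes was not tested. Intermediate progenitor genes (8 of 8 tested, 0 called) summed to 928 and 671 CPM in KO 5 and KO 6, against 690 and 865 CPM in WT 1 and WT 4. This sum was lowest in KO 6 and next lowest in WT 1, and KO 6 was the lowest library for 5 of the 8 genes. The sum of the mitosis genes was lowest in KO 6 and highest in WT 1. Radial glia genes (12 of 12, 0 called) summed to 2277 and 2216 CPM in KO 5 and KO 6, against 2453 and 2198 CPM in WT 1 and WT 4. Single radial glia genes did not all follow this sum. KO 6 was the lowest library for 5 of the 12 and WT 1 the highest for 6, against 25.6% and 27.9% of all tested genes. Ganglionic eminence genes (11 of 12 tested, 0 called) summed to 272 and 377 CPM in KO, against 703 and 375 CPM in WT, with WT 1 highest. WT 1 was also highest for the 8 meningeal genes (48.5 and 65.8 CPM in KO 5 and KO 6, 486 and 88.4 CPM in WT 1 and WT 4), the 8 endothelial genes (138 and 134 CPM in KO, 232 and 135 CPM in WT), the 8 microglia and macrophage genes (44.4 and 48.9 CPM in KO, 93.3 and 47.1 CPM in WT) and the 5 oligodendrocyte precursor genes (43.8 and 50.1 CPM in KO, 81.0 and 45.0 CPM in WT). Red cell genes (8 listed in both tables) were highest in KO 6, at 767 and 1469 CPM in KO 5 and KO 6, against 1066 and 1010 CPM in WT 1 and WT 4. No gene of these lists was at 0 in any library, and edgeR called 0 in each list. At an unadjusted edgeR p under 0.05 there were 7 of 11 ganglionic eminence genes and 6 of 8 meningeal genes, against 1.94% of all tested genes. The same held for 1 of 8 microglia and macrophage genes and 1 of 11 neuronal genes. In each of the other lists, the cell cycle lists included, there were 0.

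**Figure D5:**
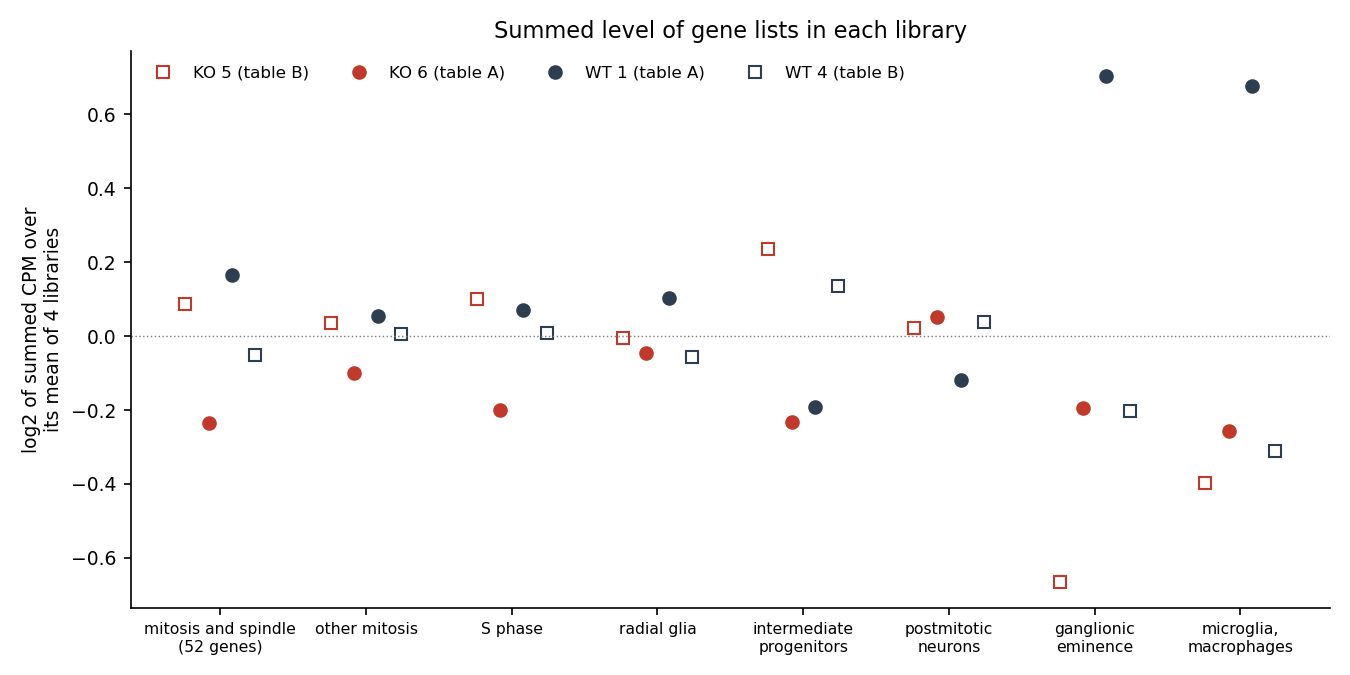
Summed CPM of each gene list in each library, as log2 of the sum over its mean of the 4 libraries (vertical axis), for KO 5, KO 6, WT 1 and WT 4 from left to right. Mitosis and S phase lists are lowest in KO 6, and ganglionic eminence and macrophage lists stand highest in WT 1.

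Some of the 52 genes share sequence with others, which makes their counts uncertain. Kifc1 shares 59.2% of its 25-base words with its paralog Kifc5b, Cdc20 29.4% with the pseudogene Gm7856, Ccnb1 24.3% with Ccnb1-ps and Plk1 20.6% with Plk-ps1. Kif11, the gene of smallest p, shares 10.1% with any other gene, 7.21% with the pseudogene Gm15697. Exons of Kif20a overlap Cdc23 over 29.3% of their length on the opposite strand, and those of Ube2c overlap Tnnc2 over 22.8%. Exons of Kif4 overlap Pdzd11 over 15.1% and those of Ccna2 overlap Exosc9 over 12.5%, also on the opposite strand. Whether the counting used strand is not given in the sources used here. Over the 38 genes with under 10% of words or exons shared, the median log2 fold change was -0.14, with -0.41 in table A and 0.13 in table B. Kif11, Kif4 and Ccna2 are not among these 38.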

How the data were processed

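Libraries were made from total RNA with an Illumina TruSeq RNA kit, per the labels. Whole counts per Ensembl gene were made and deposited by the authors. Tools named, without roles, in the submitters' processing notes are HTSeq 0.6.0, TopHat2 2.0.12 and Bowtie2 2.2.3, with the build mm9. Deposited positions are printed as given: 47 of the 52 genes have the start and end of GENCODE M21 (GRCm38). The authors' deposited CPM values, fold (KO over WT ratio), log2 fold change and p-value columns compare 1 KO with 1 WT library in a table.

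Counts of the 20385 genes in both tables were joined, filtered with filterByExpr (16371 left) and scaled by TMM (factors 0.994 to 1.012), which CPM values in the text include. KO was compared with WT by edgeR 4.0.16 quasi-likelihood in R 4.3.3, two-sided, with Benjamini-Hochberg adjustment at 0.05. SEs and 95% intervals come from its F statistic and degrees of freedom, and SDs are over 2 libraries. Ratios within a table use a prior count of 2. Alternatives were DESeq2 1.42.0, limma 3.58.1 (voom), other scalings, no filter, the table as a block and leaving out each library. Scripts were tested on simulated data. Tables and plots used Python 3.11.15, pandas 2.3.3, scipy 1.17.1 and matplotlib 3.10.9. The genes and lists were chosen with earlier results of these data known. In each of 9 role classes, full values were given for the gene of highest level per kilobase and the 2 of smallest p. The rest are given because all 52 are described, and those singled out among them, such as Kif18a, were singled out after their values were seen. Of each other list up to 2 genes of smallest p could be named.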

Additional observations from a re-analysis of the deposited data

How the results depend on the processing

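A fit with the replicate number as a block could not be made, since the labels share no number between the genotypes (5 and 6 for KO, 1 and 4 for WT). The deposited table pairs 1 KO with 1 WT library, and with it as a block edgeR, left with 1 residual degree of freedom, called 29 of all genes, against 2 without it, and 0 of the 52 mitosis genes. DESeq2 called 8 of all genes, and leaving out a library gave 5 (without KO 5) to 312 (without WT 4), with 0 of the 52 called in each of these fits. The median log2 fold change of the 52 stayed between -0.15 and -0.13 over the alternatives that kept all 4 libraries and ran from -0.31 to 0.01 when a library was left out. With a library left out the lone library of its genotype is assumed to vary like the others. Under the alternatives that kept all libraries no log2 fold change of the 52 changed sign. When a library was left out 37 changed sign and 15 did not, and the cause was not tested. Over those 4 fits the log2 fold changes of the 37 had these ranges. Among the kinases and cyclins these were Aurka -0.30 to 0.0156, Ccnb1 -0.28 to 0.13, Cdc25b -0.14 to 0.00020, Cdc25c -0.32 to 0.0188, Foxm1 -0.47 to 0.0532, Plk1 -0.50 to 0.0492 and Plk4 -0.25 to 0.0842. Among the spindle checkpoint genes these were Bub1 -0.32 to 0.0175, Bub1b -0.47 to 0.00282, Bub3 -0.13 to 0.10, Mad2l1 -0.23 to 0.10 and Ttk -0.30 to 0.29. Among the kinetochore and centromere genes these were Cenpa -0.36 to 0.0662, Ndc80 -0.23 to 0.15 and Nuf2 -0.26 to 0.013. Among the chromosomal passenger complex genes these were Aurkb -0.59 to 0.12, Birc5 -0.42 to 0.23 and Incenp -0.41 to 0.20. Among the kinesins these were Kif15 -0.20 to 0.094, Kif20a -0.56 to 0.0531, Kif20b -0.21 to 0.11, Kif22 -0.33 to 0.029, Kif23 -0.28 to 0.0182, Kif2c -0.45 to 0.0167 and Kifc1 -0.41 to 0.23. Among the spindle assembly and midzone genes these were Prc1 -0.0502 to 0.0892 and Tpx2 -0.38 to 0.13. Among the cytokinesis genes these were Anln -0.33 to 0.0735, Ect2 -0.29 to 0.17 and Racgap1 -0.24 to 0.12. Among the chromosome structure genes these were Mki67 -0.32 to 0.0299, Ncapd2 -0.16 to 0.39, Ncapg -0.35 to 0.0956 and Ncaph -0.46 to 0.21. Among the anaphase and cyclin destruction genes these were Cdc20 -0.41 to 0.23, Espl1 -0.41 to 0.18 and Ube2c -0.57 to 0.0953. The 15 that kept their sign also moved: Ccna2 -0.47 to -0.0688, Ccnb2 -0.37 to -0.12, Cdca8 -0.37 to -0.0111, Cdk1 -0.28 to -0.00882, Cenpf -0.21 to -0.0973, Kif11 -0.62 to -0.28, Kif18a -0.42 to -0.19, Kif4 -0.33 to -0.15, Nusap1 -0.44 to -0.0726, Pttg1 0.0668 to 0.18, Smc2 -0.29 to -0.0471, Smc4 -0.22 to -0.00729, Spc24 -0.39 to -0.0897, Spc25 -0.53 to -0.23 and Top2a -0.35 to -0.0346. With 2 libraries per genotype the SEs of the 52 genes were 0.11 to 0.25 on the log2 scale, which limits what could be detected.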
